A study of Psammomys obesus with 8 samples.

Results

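CpG island-like contigs are the stretches of the sand rat methylome whose base composition resembles that of a CpG island. They were chosen from sequence alone, as assembled contigs of 200 bases or more with a G+C content of 55% or more, a CpG observed/expected ratio of 0.6 or more and no tandem structure. The rule kept 2882 of the 548060 contigs (0.526%). The contigs come from MethylMiner libraries of hypothalamus from male fat sand rats (Psammomys obesus, a desert rodent used as a model of diet-induced diabetes) aged 16 weeks. The 4 standard-low libraries (titled Standard-Low lipid, with the diet given as Standard Lipid) were compared with the 4 low-low libraries (titled Low-Low lipid, with the diet given as Low lipid). The series' design text gives the father's diet as what differs between the offspring. The labels do not say how many fathers, litters or animals the libraries represent. Every p-value here is therefore set against library-to-library spread, which can be technical.

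CpG islands are G+C-rich stretches in which the dinucleotide CpG has been retained, while elsewhere in a mammalian genome it is depleted because methylated cytosine mutates readily to thymine. Many islands lie at promoters and are unmethylated in most tissues, and islands inside genes or in coding exons are methylated more often. MethylMiner captures DNA fragments through the methyl-binding domain of MBD2, so the table favours sequence from which methylated fragments were captured, and fragments carried over without methylation were not measured. A count is the number of reads placed on a contig, which depends on methylation, on the number of CpGs in the fragment, on copy number and on how well G+C-rich fragments are amplified.

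Sequences of 3 of these contigs show what the rule selects, with every CpG in capitals. The first holds the lower-capture call in Kcnj4, the second lies beside the appetite gene Pomc, and the third is one of the most heavily captured, next to the mouse transcript AY036118. Mouse positions are those of the deposited table, with the mouse build not given in the sources, and whether the sequence as deposited runs along the gene's strand was not analysed. The Kcnj4 contig (contig 1972681) matches mouse chr15:79484606-79484890 inside the gene and holds 18 CpGs in 293 bases. The Pomc contig (contig 2483852) matches chr12:3954486-3954840, 111 bases from the gene, and its first 300 of 354 bases are printed, with 14 CpGs. The AY036118 contig (contig 500286) matches chr17:39846560-39846764 and holds 22 CpGs in 207 bases.
Kcnj4 contig: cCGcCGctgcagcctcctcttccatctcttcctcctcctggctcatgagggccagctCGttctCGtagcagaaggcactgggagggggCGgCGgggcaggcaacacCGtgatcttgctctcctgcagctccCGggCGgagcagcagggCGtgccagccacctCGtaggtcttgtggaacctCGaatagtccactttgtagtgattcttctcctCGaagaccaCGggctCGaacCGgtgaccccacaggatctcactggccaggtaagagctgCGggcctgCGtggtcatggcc
Pomc contig: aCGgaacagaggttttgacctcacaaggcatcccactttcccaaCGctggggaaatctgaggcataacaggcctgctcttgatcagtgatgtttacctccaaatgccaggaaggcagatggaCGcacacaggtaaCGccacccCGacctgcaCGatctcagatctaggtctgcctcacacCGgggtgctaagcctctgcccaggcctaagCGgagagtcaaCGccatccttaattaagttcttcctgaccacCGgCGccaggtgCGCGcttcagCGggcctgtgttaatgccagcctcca
AY036118 contig: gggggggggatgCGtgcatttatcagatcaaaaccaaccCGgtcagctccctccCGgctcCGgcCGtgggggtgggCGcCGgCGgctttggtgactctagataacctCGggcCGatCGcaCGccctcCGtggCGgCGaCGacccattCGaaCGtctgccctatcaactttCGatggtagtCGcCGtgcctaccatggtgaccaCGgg

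The island-like contigs were short. Their median length was 382.5 bases (200 to 2088), against 458 bases for the 514804 other non-tandem contigs of at least 200 bases. Median G+C was 59.2% and the median CpG observed/expected ratio was 0.655. The median CpG density, which the rule favours but does not fix, was 5.80 per 100 bases (1.71 to 15.9) against 2.14. The longest with a gene match were 2088 bases in Dip2b (105 CpGs), 1755 bases in Ptprs, a receptor tyrosine phosphatase of neurons (97 CpGs), and 1713 bases in Gfod1 (91 CpGs). The mouse match covers only 369 bases of the Dip2b contig and 454 of the Ptprs contig, so most of their length is not placed in the gene. Each of the 3 was captured at 4.51 to 5.20 CPM per kb (library counts scaled to a common total, CPM, and divided by contig length). Only 18 (0.625%) shared 90% identity over 100 bases or more with another island-like contig, and neither called contig was among them. At the edges of the rule, 328 contigs had a ratio between 0.60 and 0.61 and a median of 4.34 CPM per kb, and 355 contigs just outside it, between 0.59 and 0.60, had 4.36. The 411 with G+C between 55% and 56% had 4.27 CPM per kb and the 487 just under 55% had 4.41.

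**Figure D1:**
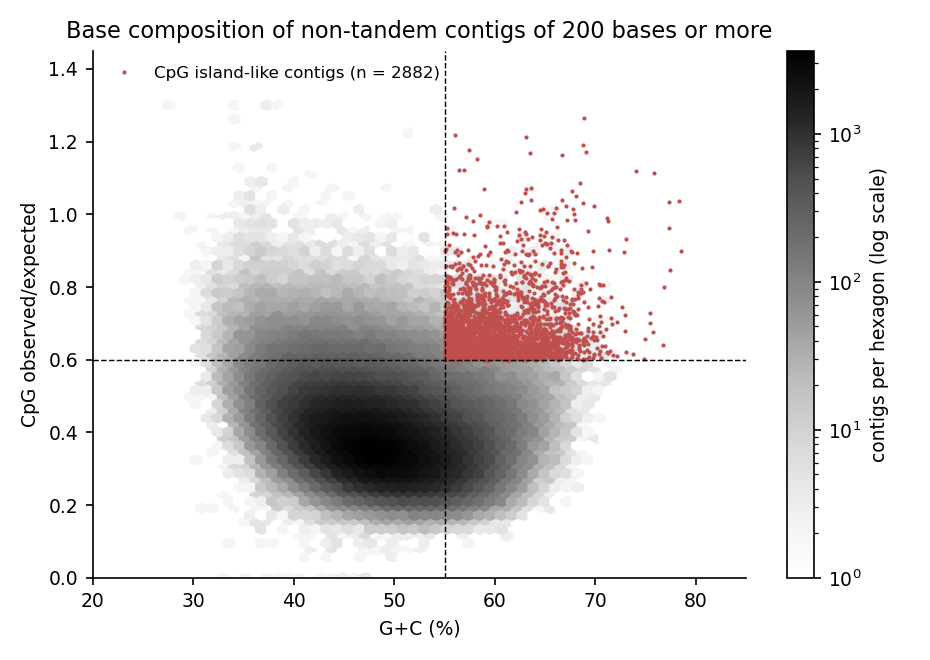
CpG observed/expected ratio against G+C (%) for all non-tandem contigs of 200 bases or more (grey hexagons, shaded by number on a log scale) and for the 2882 island-like contigs (red points), with dashed lines at 55% and 0.6. The island-like contigs form the upper right edge of one continuous cloud and stand in no separate cluster.

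The island-like contigs with a mouse match lay mostly inside genes. A match was listed for 1356 (47.1%), compared with 39.5% of the other non-tandem contigs and 45.2% of 64434 contigs above the same G+C limit but with a CpG ratio under 0.6, called CpG-poor below. That name refers to the ratio alone. These contigs held a median of 2.92 CpGs per 100 bases, against 2.14 for the other non-tandem contigs. Of the matched island-like contigs, 88.6% lay inside a gene, against 59.8% of the other matched contigs and 81.2% of the matched CpG-poor ones. Counting also those without a match, 41.7% of the island-like contigs were placed inside a gene, against 23.6% and 36.7%. The match covered a median of 91.0% of the island-like contig, against 47.4% and 75.4%. Taking matches of at least 100 aligned bases inside or within 2 kb of a gene, 1117 contigs represented 913 mouse genes, and 710 (77.8%) of these symbols are in the sand rat RefSeq annotation (assembly mPsaObe1). Exons, introns and untranslated regions were not analysed here.

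Open reading frames were frequent. Among contigs of 300 to 500 bases, 469 of 1224 island-like ones (38.3%) had a reading frame with no stop codon over the whole length, against 18.1% of the CpG-poor ones. Where the mouse match covered more than 80% of the contig the shares were 63.2% (218 of 345) and 27.5%. Stop codons are rich in A and T, and the CpG-poor set shares only the lower G+C limit.

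Most genes had a single island-like contig (770 of 913), and 33 genes had 3 or more. The largest group was 16 contigs at Pcdhga3 and another 6 at Pcdha10, both on mouse chromosome 18. They belong to the clustered protocadherins, cell adhesion genes whose many similar exons each have a promoter and give neurons their individual surface identity. Of the 113 contigs listed at clustered protocadherins, 22 (19.5%) were island-like, against 1.11% of contigs at any gene. The similar exons mean that the assignment to one member gene is uncertain. Ptprs had 9, and the Wnt pathway gene Apc2, the sodium channel gene Scn8a, Dip2b and the heat shock gene Hspa1b, which has a near-identical neighbour, had 4 each. In windows of 5 Mb along mouse chromosomes, island-like contigs made up a median of 0.429% of the matched contigs. The share reached 4.68% (16 of 342) at chr17:35000001-40000000 and 4.49% (34 of 758) at chr10:80000001-85000000. By chromosome it was highest on mouse 17 (1.14%), 7 (1.07%) and 15 (1.04%) and lowest on X (0.204%).

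Promoter motifs were searched on both strands by their exact letters and compared with contigs of the same lengths. The GC box GGGCGG, to which Sp1 binds, was present in 39.3% of the island-like contigs, 24.8% of the CpG-poor ones and 11.0% of all others. CACGTG, an E-box with a central CpG, was in 21.0%, 13.6% and 13.2%. The cyclic AMP response element TGACGTCA was in 1.11%, 0.669% and 0.625%, and the NRF1 site in 0.486%, 0.0954% and 0.0748%. The E2F site TTTCGCGC was in 0.278%, 0.0639% and 0.050%. The CTCF core was found in 2 island-like contigs. Motifs that contain CpG are favoured by the rule itself, so these shares describe the sequences only. Overlaps between motifs were not removed.

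Capture of the island-like contigs was close to that of contigs above the same G+C limit with a CpG ratio under 0.6. The library totals were 11646180 to 12156525 counts in standard-low and 12528388 to 13533441 in low-low. A median island-like contig had 19.12 counts per library, 3 had a zero in some library, and all 2882 had a mean of 10 counts or more. Their median capture was 4.11 CPM per kb, against 3.38 for the other non-tandem contigs and 4.12 for the CpG-poor ones. These medians were not matched for length, which had medians of 382.5, 458 and 430 bases. Only contigs with 81 counts or more in all are present, so short contigs enter only at high CPM per kb. Among island-like contigs the median was 4.41 CPM per kb at 200 to 300 bases, 3.85 at 300 to 400 and 4.44 at 1000 or more. Set against all other contigs library by library, the ratio of medians was 1.15, 0.901, 1.40 and 0.997 in standard-low 1 to 4 and 1.16, 1.35, 1.38 and 1.32 in low-low 1 to 4. The ratio was below 1 in standard-low 2 and 4 only.

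The most heavily captured contigs were low in 1 low-low library. The 10 with the highest capture had 40.6 to 89.4 CPM per kb, CpG ratios of 0.827 to 1.21 and 2.99% of all counts in island-like contigs. They include 3 contigs at or beside AY036118, a mouse transcript in a region that resembles ribosomal RNA sequence. Summed, these 3 had 60.1, 58.9, 50.8 and 48.4 CPM in standard-low 1 to 4 and 58.8, 54.3, 57.6 and 27.6 CPM in low-low 1 to 4. Low-low 4 had less than any other library and the remaining libraries lay close together. All 10 were lowest in low-low 4, at 0.381 to 0.635 of the mean of the other low-low libraries, whereas 3.92% of all island-like contigs were lowest there. Copy number was not estimated, and its part in these values was not tested. Also among the 10 were contigs in Cmss1 (60.99 CPM per kb) and Mir5105 (45.1). Below these, the gene-matched contigs with most capture lay in the ubiquitin ligase adaptor gene Kbtbd7 (15.3 CPM per kb), the zinc finger gene Zbtb45 (13.5) and Mta1, of the NuRD chromatin complex (10.4). Kbtbd7 averaged 4.58 ± 0.854 CPM in standard-low and 5.51 ± 0.532 CPM in low-low (SD, n = 4 each), with groups that overlap.

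**Figure D2:**
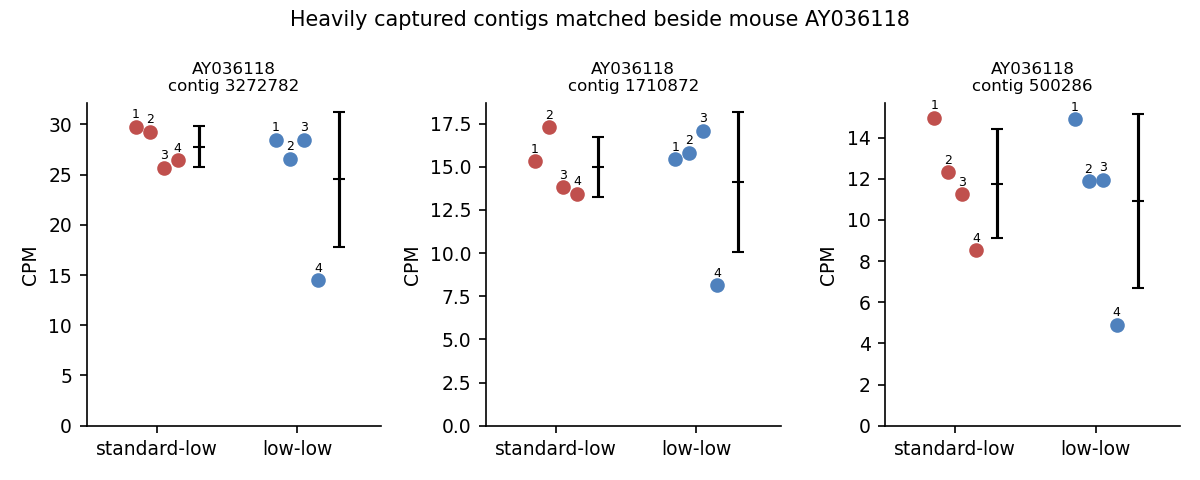
Captured reads in CPM for the 3 island-like contigs at AY036118, by group, with libraries numbered 1 to 4 and bars for mean ± SD (n = 4). Low-low 4 is the lowest point in each panel, at 14.5, 8.14 and 4.92 CPM.

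Comparing the offspring groups, island-like contigs were captured less in standard-low on average, but the groups overlapped and the standard-low libraries were spread widely. They held 0.566%, 0.459%, 0.668% and 0.495% of the counts in standard-low 1 to 4 and 0.573%, 0.654%, 0.663% and 0.631% in low-low 1 to 4. The mean share was 0.547 ± 0.092% in standard-low and 0.630 ± 0.041% in low-low (SD, n = 4 each), a ratio of 0.868. Standard-low 3 was the highest of all 8 and standard-low 2 the lowest. Over single contigs the median log2 fold change (standard-low over low-low) was -0.23, against 0.00 over all contigs, and 2290 (79.5%) were negative, against 49.7%. Standard-low 2 was the lowest library for 1288 contigs (44.7%) and standard-low 4 for 627 (21.8%). Relative to each contig's mean, the median log2 value was -0.09, -0.44, 0.18 and -0.27 in standard-low 1 to 4 and -0.06, 0.15, 0.17 and 0.12 in low-low 1 to 4. Without standard-low 2 and 4, an alternative chosen after the data were seen, the median fold change was -0.04. These are the lowest libraries of the lower group, so the difference had to shrink without them, and without standard-low 3, the highest, it was -0.36.

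**Figure D3:**
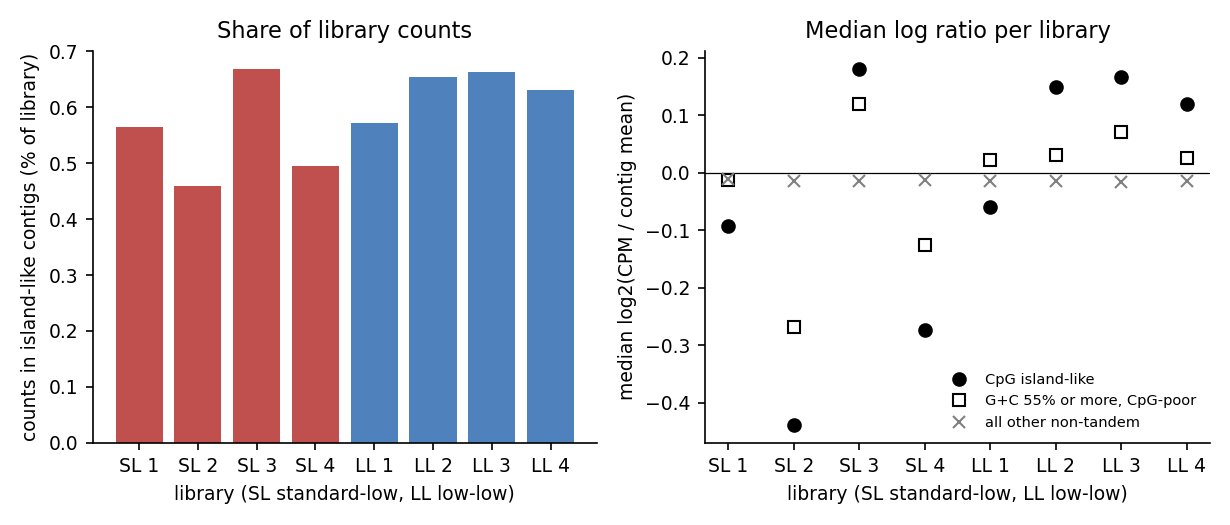
Left, counts in island-like contigs as a percentage of each library (bars from 0, standard-low red, low-low blue). Right, median log2 ratio of CPM to the contig's mean over 8 libraries, for island-like contigs, CpG-poor contigs above the same G+C limit and all other non-tandem contigs. Standard-low 2 and 4 are low and standard-low 3 is high for the first set, and the CpG-poor set moves the same way with a smaller range.

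The difference followed base composition across the whole table. The median fold change on the log2 scale was 0.16 for contigs with G+C under 40% and a CpG ratio under 0.4, and it decreased step by step with both measures to -0.28 for G+C of 65% or more with a ratio of 0.6 or more. The CpG-poor contigs above the same G+C limit had a median of -0.10. In contigs with G+C of 65% or more, the median log2 value relative to the contig mean was -0.02, -0.57, 0.29 and -0.35 in standard-low 1 to 4 and -0.04, 0.12, 0.19 and 0.08 in low-low 1 to 4. In contigs under 40% it was -0.03, 0.17, -0.15 and 0.10 in standard-low 1 to 4 and -0.08, -0.07, -0.09 and -0.03 in low-low 1 to 4. Standard-low 2, 3 and 4 and low-low 2, 3 and 4 thus each took opposite signs at the 2 ends of the G+C range, with a smaller range in low-low. A correction for the dependence on G+C and CpG ratio in each library was also added after the data were seen. With it the median of the island-like contigs was -0.02. The correction is fitted on the measures that define the set, without regard to group. It thus removes differences that the set shares, from any source, and the median had to shrink. Methylation and amplification of G+C-rich fragments cannot be told apart from these counts. Just inside and just outside the rule the medians were alike, at -0.20 on both sides of a ratio of 0.6 and at -0.19 and -0.18 across 55% G+C.

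**Figure D4:**
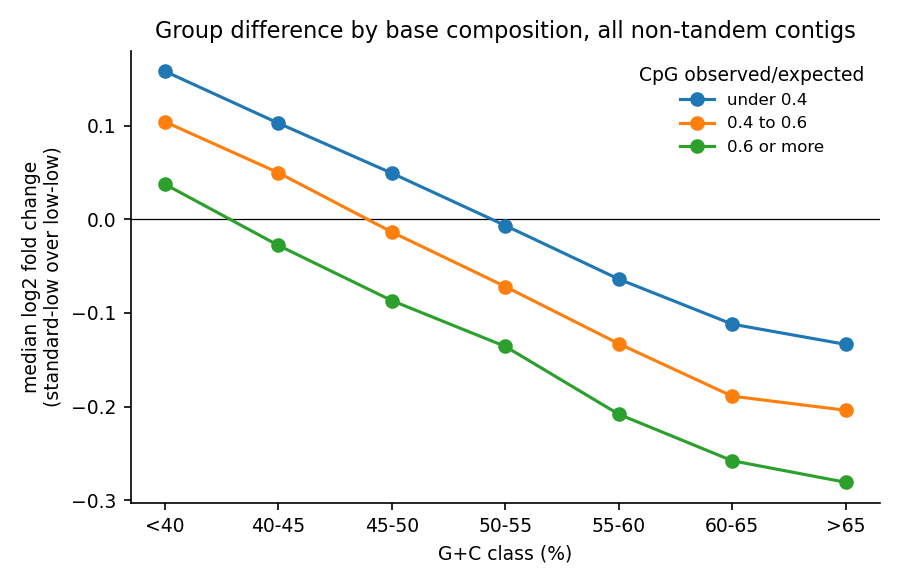
Median log2 fold change (standard-low over low-low) by G+C class, with one line for each range of CpG observed/expected ratio, over all non-tandem contigs. The lines slope down with G+C and with the CpG ratio, to -0.28 in the class of highest G+C and highest ratio.

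Within the island-like set the fold change varied little with CpG ratio or length. The median was -0.21 for the 1351 contigs with a ratio of 0.60 to 0.65 and -0.26 for the 98 with 0.9 or more, of which 80.5% and 66.3% were negative. It was -0.23 for the 808 contigs under 300 bases and -0.26 for the 121 of 1000 bases or more, of which 95.0% were negative against 75.6% of the short ones. Of the 33 genes with 3 or more island-like contigs, the median was negative in 32, and all contigs were negative in 18. Of all island-like contigs 79.5% were negative, so a gene with 3 of them is often all negative by that share alone.

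With edgeR's quasi-likelihood test and Benjamini-Hochberg adjustment over all 548060 contigs, 2 island-like contigs (0.0694%) passed at 0.05, both lower in standard-low, where 0.0268% of all contigs passed in either direction 0.00657% as lower and 0.0203% as higher. DESeq2 and limma voom called 0 island-like contigs, for which 0.00584% and 0.00912% of all contigs passed. At an unadjusted p under 0.05 edgeR had 418 (14.5%, against 5.68% of all contigs), DESeq2 203 (7.04%, against 2.28%) and limma voom 470 (16.3%, against 5.56%). By direction, edgeR had 407 lower (14.1%, against 2.76%) and 11 higher (0.382%, against 2.93%) in standard-low. The libraries did not overlap between the groups for 125 contigs lower in standard-low (4.34%, against 1.61% of all contigs) and 6 higher (0.208%, against 1.63%). Fold changes of the 125 ran from -1.77 to -0.27 on the log2 scale, and 46 of them lay at 45 genes. With the composition correction, which removes set-wide differences, the share at an unadjusted p under 0.05 was 6.07%, against 5.24% of all contigs. Without standard-low 2 and 4 it was 6.49%, against 5.4%, and 1 island-like contig passed the adjusted test, where 0.0197% of all contigs did. With that correction 2 other island-like contigs passed, both higher in standard-low, where 0.0297% of all contigs passed in either direction and 0.0224% as higher. They were the AY036118 contig with the highest capture (contig 3272782, adjusted p = 0.0355) and an unmatched contig of high capture (contig 2744662, adjusted p = 0.00108). Both had their lowest value in low-low 4, and without that library neither passed with the correction. The log2 fold change was then 0.34, against 0.53 with it, for contig 3272782 (adjusted p = 0.898) and 0.52, against 0.71, for contig 2744662 (adjusted p = 0.160). On simulated data with these depths the test found 2% of 1.5-fold changes, 40% of 2-fold changes and 100% of 4-fold changes, so changes of the size seen at most island-like contigs were not detectable one by one.

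The called contig with a gene lay inside Kcnj4, which encodes an inward-rectifier potassium channel (Kir2.3) that holds neurons near their resting potential. It had 5, 5, 11 and 3 counts in standard-low 1 to 4 and 15, 19, 21 and 36 in low-low 1 to 4. Every standard-low library was below every low-low library. The means were 0.504 ± 0.284 CPM in standard-low and 1.75 ± 0.710 CPM in low-low (SD, n = 4 each), with a log2 fold change of -1.77 ± 0.35 (SE, edgeR adjusted p = 0.0127). Its match covered nearly the whole contig, whose sequence is printed above. The call was lost without standard-low 1 (adjusted p = 0.0942), standard-low 4 (0.199), low-low 3 (0.0504) or low-low 4 (0.408), and with the composition correction (0.0578, log2 fold change -1.55). Without both standard-low 2 and 4 the adjusted p was 0.667.

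The other called contig (contig 2466516) had no mouse match, 449 bases, 67.0% G+C, 21 CpGs and a CpG ratio of 0.74. It held fewer CpGs than the island-like median of 23.5, though longer and richer in G+C than the medians of 382.5 bases and 59.2%. An uneven balance of C and G also raises the ratio. With 21 CpGs at that length and G+C, a ratio of 0.74 requires very unequal numbers of C and G. With equal numbers the ratio would be under 0.6 and the contig would not be in the set. The contig had 5, 5, 5 and 15 counts in standard-low 1 to 4 and 20, 18, 42 and 19 in low-low 1 to 4, again without overlap. The means were 0.633 ± 0.423 CPM in standard-low and 1.92 ± 0.968 CPM in low-low, a 3.04-fold lower level (edgeR adjusted p = 0.0427). The call was lost without standard-low 1 (adjusted p = 0.279), standard-low 2 (0.189), standard-low 3 (0.130) or low-low 3 (0.911), and with the composition correction (0.323). The log2 fold change in those fits was -1.44, -1.43, -1.42, -1.18 and -1.30, against -1.58 with all libraries. Without standard-low 2 and 4 it was -2.15 and the call held (adjusted p = 0.0266).

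The next contigs by p among those lower in standard-low at genes did not pass. All 5 were without overlap between the groups, which picking them by p favours. In Gpr4, a proton-sensing receptor, the contig at chr7:19222636-19223445 had 1.80, 1.77, 2.40 and 1.78 CPM in standard-low 1 to 4 and 3.44, 3.94, 3.77 and 3.38 CPM in low-low 1 to 4. The groups lay far apart for their spread (log2 fold change -0.90 ± 0.21, SE, edgeR adjusted p = 0.100). Leaving out 1 library gave adjusted p of 0.0415 (without standard-low 3) to 0.535 (without low-low 2), and the composition correction gave 0.606 with a log2 fold change of -0.69. Lrp2 encodes megalin, an endocytic receptor that carries leptin and other ligands across barrier cells. Its contig had 0.428, 0.506, 0.414 and 0.423 CPM in standard-low 1 to 4 and 0.840, 0.891, 1.12 and 1.77 CPM in low-low 1 to 4 (edgeR adjusted p = 0.495). The Lrp2 counts were 5, 6, 5 and 5 in standard-low 1 to 4 and 11, 12, 14 and 23 in low-low 1 to 4. Near-equal values at so few reads say little about the spread between libraries, and low-low 4 was the highest. The contig in Prss36, a serine protease gene, had 0.504 ± 0.232 CPM in standard-low and 1.23 ± 0.096 CPM in low-low (edgeR adjusted p = 0.547). Its counts were 6, 4, 10 and 4 in standard-low 1 to 4 and 15, 18, 16 and 15 in low-low 1 to 4. The contig at the ribosomal protein pseudogene Rpl15-ps3 had 1.69 ± 0.477 CPM in standard-low and 3.12 ± 0.474 CPM in low-low (edgeR adjusted p = 0.289), and the parent gene or other copies could share its reads. The contig at AC114988.1 had 0.546 ± 0.272 CPM in standard-low and 1.33 ± 0.241 CPM in low-low (edgeR adjusted p = 0.516). Its counts were 6, 3, 11 and 6 in standard-low 1 to 4 and 16, 17, 21 and 15 in low-low 1 to 4.

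Contigs at genes that were higher in standard-low had larger p-values. The lowest was in Gbx2, a homeobox gene that positions the midbrain-hindbrain boundary, with 1.71, 1.10, 1.66 and 1.61 CPM in standard-low 1 to 4 and 0.458, 1.41, 1.12 and 0.538 CPM in low-low 1 to 4. The groups overlapped through standard-low 2 and low-low 2 and 3 (log2 fold change 0.77 ± 0.31, SE, edgeR adjusted p = 0.827). H2-K1, a class I histocompatibility gene with close paralogs, did not overlap, with 1.12 ± 0.223 CPM in standard-low and 0.654 ± 0.137 CPM in low-low (edgeR adjusted p = 0.856). Jph4, which joins the neuronal endoplasmic reticulum to the plasma membrane, had 3.79 ± 1.23 CPM in standard-low and 2.72 ± 0.777 CPM in low-low. The RNA-binding regulator gene Samd4b had 1.10 ± 0.383 CPM in standard-low and 0.611 ± 0.198 CPM in low-low. Plekhm1, of lysosomal trafficking, had 1.39 ± 0.342 and Lrrtm1, a synaptic adhesion gene, 1.35 ± 0.228 CPM in standard-low, against 0.898 ± 0.238 and 0.904 ± 0.295 CPM in low-low. All 4 overlapped, with edgeR adjusted p of 0.842 to 0.891.

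**Figure D5:**
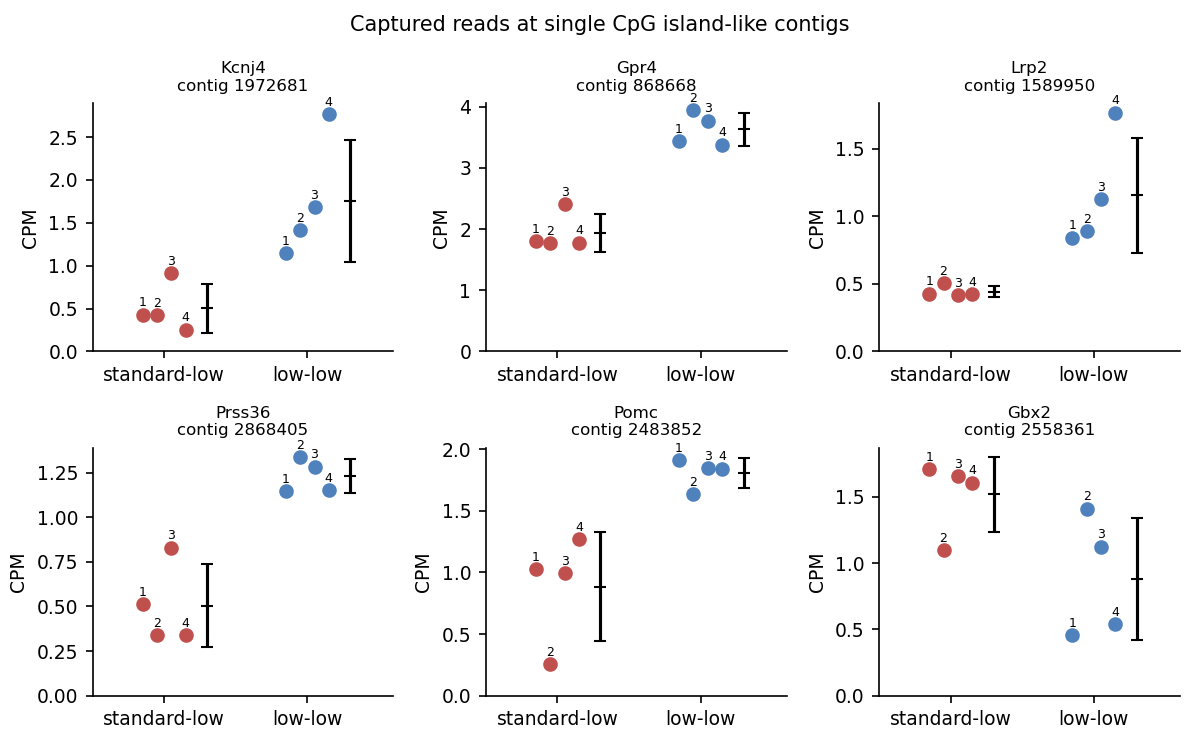
Captured reads in CPM at 6 island-like contigs, by group, with libraries numbered 1 to 4 and bars for mean ± SD (n = 4). The groups do not overlap at Kcnj4, Gpr4, Lrp2, Prss36 and Pomc, of which only Kcnj4 passed the test, and they overlap at Gbx2.

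Of the appetite and energy balance list, 2 of 182 contigs were island-like and 0 passed. The Pomc contig lies beside the gene for the precursor of alpha-MSH, a satiety peptide of arcuate neurons. It had 12, 3, 12 and 15 counts in standard-low 1 to 4 and 25, 22, 23 and 24 in low-low 1 to 4, or 1.03, 0.253, 0.995 and 1.27 CPM in standard-low and 1.91, 1.63, 1.85 and 1.84 CPM in low-low. All 4 low-low libraries were above all 4 standard-low libraries, and standard-low 2 was far below the rest. The log2 fold change was -1.02 ± 0.30 (SE, edgeR adjusted p = 0.596, unadjusted p = 0.00107) and -0.82 with the composition correction. Oxtr, the oxytocin receptor gene, had 0.696 ± 0.471 CPM in standard-low and 0.962 ± 0.286 CPM in low-low, with overlap.

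The other gene lists also had 0 contigs past the test with edgeR, DESeq2 or limma voom. Imprinted genes, expressed from one parental copy, had 6 island-like contigs of 380 (1.58%) in 5 of 54 genes (Asb4, Gnas, Nap1l5, Phlda2 and Rasgrf1). All 6 had negative fold changes, with a median of -0.27 against -0.26 for the 1117 contigs at any gene. Of those 1117, 898 were negative, so short lists with only negative values are common. Rasgrf1, a Ras activator imprinted in mouse brain, had 2.995, 2.36, 2.82 and 3.04 CPM in standard-low 1 to 4 and 3.06, 4.16, 3.61 and 3.99 CPM in low-low 1 to 4. Those groups were separated by a narrow gap (edgeR adjusted p = 0.869). Insulin and IGF signalling had 4 of 297 contigs, in Igf1r, Irs1 and Pik3r2, all with negative fold changes and a median of -0.32. The insulin receptor substrate gene Irs1 had 1.64 ± 0.519 CPM in standard-low and 2.13 ± 0.428 CPM in low-low. Lipid metabolism had 3 of 374 contigs, in Acacb, Lrp1 and Ppard, all negative with a median of -0.33. Acacb, which encodes the acetyl-CoA carboxylase that makes malonyl-CoA at mitochondria, had 2.14, 2.53, 2.24 and 2.28 CPM in standard-low 1 to 4 and 2.22, 2.82, 3.45 and 3.07 CPM in low-low 1 to 4. Low-low 1 lay within the standard-low range, and low-low 2 to 4 were above all standard-low libraries (edgeR adjusted p = 0.911). The mouse match covers only 133 of the 602 bases of the Acacb contig and 267 of the 608 bases of the Rasgrf1 contig.

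Developmental transcription factors, whose promoters are classical islands, had 3 of 430 contigs (0.698%), in Gbx2, Lmx1b and Sox18, with 1 negative and 2 positive. Germline genes, often silenced by island methylation in somatic tissue, had 3 of 193 (1.55%), in D1Pas1, Dnd1 and Fkbp6, again with 1 negative and 2 positive. The testis helicase gene D1Pas1 had 1.33 ± 0.197 CPM in standard-low and 1.15 ± 0.320 CPM in low-low. The DNA methylation machinery had 1 of 161 contigs, in Zbtb4, which binds methylated DNA, with 4.13 ± 1.17 CPM in standard-low and 4.07 ± 0.770 CPM in low-low. Housekeeping genes had 3 of 68 (4.41%), in Eef2, Tuba1b and Tubb5, all negative with a median of -0.30, and the tubulin genes have close copies that could share reads. The mouse match covers only 188 of the 665 bases of the Eef2 contig. Of the 22 clustered protocadherin contigs, 14 were negative and 8 positive, with a median of -0.12. The longest at Pcdhga3, of 1309 bases with 93 CpGs, had 4.80 ± 0.584 CPM in standard-low and 5.48 ± 0.148 CPM in low-low.

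Markers of the cell types a hypothalamus holds gave 5 island-like contigs of 363, and 0 passed. They lay at the neuronal genes Rbfox3 and Tubb3 (3 contigs, 1 negative and 2 positive) and at the oligodendrocyte genes Cldn11 and Cnp (2 contigs, both negative, median -0.53). Astrocyte, microglial, endothelial, ependymal and blood markers had 0. A shift in cell types moves methylation as well as a change within cells, and these counts cannot tell the one from the other.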

How the data were processed

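The authors deposited a table of whole-number read counts per contig for 8 MethylMiner (MBD2 capture) libraries, with each contig's sequence and, for some, a mouse match, gene and distance, per the file headers and contig names. FastQC and BWA were used, per the submitters' processing notes. Their versions, the assembler, the counting and the mouse build are not given in those sources. Library names in the header are separated by spaces and values by tabs, so columns were matched in header order. The table holds only contigs with 81 counts or more in all, and the labels assign groups.

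G+C, CpG ratio and tandem structure (under 50% of bases equal at every shift of 1 to 60) were computed from the sequences. The fit ran over all 548060 contigs with edgeR 4.0.16 (TMM factors, mean of 10 counts or more, which removed 0 contigs; quasi-likelihood test, two-sided), with DESeq2 1.42.0 and limma voom 3.58.1 as alternatives, in R 4.3.3. CPM divides by the library total times its TMM factor, and the share of library counts divides by the total alone. BLAST 2.17.0 gave shared sequence. The composition correction used log-ratio offsets fitted on splines of G+C and CpG ratio. Tests were checked on simulated data, in which 6 of 547860 unchanged contigs were called.

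The contigs and gene lists were chosen with earlier results of these data known. Named contigs are those called, the 6 with the lowest p in each direction at a gene, the 6 with most capture and the 3 longest at a gene, counting 1 contig per gene for p and capture, and up to 4 genes per list by longest contig. The 2 further AY036118 contigs and one unmatched contig of high capture were named after their values were seen. One gene of the lipid metabolism list is not reported here.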

Additional observations from a re-analysis of the deposited data

Results flagged for a closer look

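Among 100 groups of 4 libraries, those at the named contigs together with the share of counts and the median log2 ratio, 9 held a library set apart from the other 3 by a gap past Dixon's 95% critical value, and chance alone sets apart about 1 in 20 groups. The unmatched contig 2466516 had 1.27 CPM in standard-low 4 against 0.414 to 0.428 CPM in the other standard-low libraries. It also had 3.37 CPM in low-low 3 against 1.34 to 1.53 CPM in the other low-low libraries. Gpr4 had 2.40 CPM in standard-low 3 against 1.77 to 1.80 CPM, and Lrp2 had 0.506 CPM in standard-low 2 against 0.414 to 0.428 CPM. The Lrp2 values are 5, 6, 5 and 5 counts in standard-low 1 to 4, so a single read sets that library apart. The AY036118 contig 3272782 had 14.5 CPM in low-low 4 against 26.6 to 28.5 CPM. Asb4 had 2.14 CPM in low-low 1 against 2.97 to 3.05 CPM, and Oxtr had 0.535 CPM there against 1.08 to 1.12 CPM. Zbtb4 had 5.22 CPM in low-low 3 against 3.61 to 3.82 CPM, and Pcdhga3 had 5.70 CPM there against 5.38 to 5.42 CPM. The Pcdhga3 counts were 71, 73, 71 and 70 in low-low 1 to 4, so that gap comes from scaling by library size.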

How the results depend on the processing

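The count of 2 called island-like contigs was 2 with library totals, RLE size factors, no filter on low counts and the replicate block, and 3 with a looser definition. It was 0 with DESeq2, 0 with limma voom, 0 with a mean of 20 counts (1355 contigs tested), 0 with a stricter definition and 1 among contigs with a mouse match of 100 bases. Leaving out 1 library gave 0 to 9, with 9 without standard-low 3, 1 of them shared, and 4 without low-low 1, in fits that called 207 and 204 of all contigs against 147 with all libraries. It was 1 without standard-low 2 and 4. With the composition correction it was 2, neither shared, and 0 when low-low 4 was also left out. The median log2 fold change of -0.23 lay between -0.36 and -0.14 when 1 library was left out, was -0.24 with the replicate block, and was -0.016 with the composition correction and -0.0080 with low-low 4 also left out. The correction removes differences shared by the set, so the medians with it had to shrink. The cause was not tested. The share ratio of 0.868 ranged from 0.804 to 0.914. The capture ratio of 1.21 was 0.450 per CpG, since most of these contigs hold more CpGs per base, which the rule favours. Deviations of libraries with the same number had correlations of -0.008 to 0.031, and those with different numbers -0.040 to 0.032. Counting noise at these depths can hide a pairing, so these values cannot decide whether the numbers mark pairs. The main test did not take them as pairs, and the replicate block is the alternative that does.

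Of 846 alternative values at 48 named contigs, 764 kept direction and side of the threshold, and 62 changed sign, none of them at a contig called in the report's test. As log2 fold changes, limma voom gave -0.078 at Mta1, -0.0085 at Fkbp6, -0.00098 at Zbtb4 and -0.0022 at Pcdha10, and the replicate block gave -0.022 at Mta1 and -0.0025 at Pcdha10. The composition correction gave 0.051 at Zbtb45, 0.024 at Ptprs, 0.17 at Phlda2, 0.073 at Asb4, 0.024 at Dnd1, 0.066 at Lmx1b, 0.025 at Igf1r, 0.076 at Lrp1, 0.040 at Tubb5 and 0.086 at Pcdhga3. With low-low 4 also left out it gave 0.045 at Kbtbd7, 0.042 at Zbtb45, 0.0060 at Ptprs, 0.13 at Phlda2, 0.10 at Asb4, 0.23 at Lmx1b, 0.065 at Pik3r2, 0.016 at Igf1r, 0.091 at Lrp1, 0.044 at Tubb5 and 0.067 at Pcdhga3. Without standard-low 2 and 4 it was 0.028 at Ptprs, 0.13 at Phlda2, 0.10 at Dnd1, -0.17 at Fkbp6, 0.19 at Oxtr, 0.095 at Pik3r2, 0.18 at Lrp1 and 0.28 at Tubb5. Leaving out 1 library gave -0.27 to 0.22 at Mta1, -0.054 to 0.085 at Pcdha10, -0.50 to 0.12 at Lrp1, -0.30 to 0.15 at Phlda2, -0.11 to 0.20 at Sox18, -0.099 to 0.16 at Zbtb4 and -0.17 to 0.17 at Fkbp6. It gave -0.0033 to 0.26, -0.11 to 0.19 and -0.13 to 0.30 at the AY036118 contigs 3272782, 1710872 and 500286, each lowest without low-low 4. Depth limits single contigs, with a median of 19.12 counts per library.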
